A study of Mus musculus with 4 samples.

Results

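Crossover formation was examined through 7 genes that build or resolve crossovers in meiosis: Msh4, Msh5, Tex11, Hfm1, Mlh3, Ccnb1ip1 and Cntd1. They were taken by name from a list of 8 genes, and 7 of these were found among the 23980 genes measured. Rnf212, which encodes a ligase that stabilises crossover precursors, was not analysed here. PolyA(+) RNA had been sequenced from leptotene/zygotene (L/Z) spermatocytes, the cells that have just entered meiotic prophase, sorted by flow cytometry from F1 hybrid mice of C57BL6/J and MSM/Ms at 3 to 4 weeks of age. The 4 libraries came from a Dnmt3L heterozygote (control replicate 1), a Pld6 WT (control replicate 2), a Dnmt3L KO and a Pld6 KO. The controls thus differ in genotype and in mouse line, and how many animals a library pools is not stated in the sources used here. Each mutant had 1 library, so no mutant value has a replicate check, and the spread given is that between the 2 controls. Pld6 encodes a nuclease needed for piRNAs, and Dnmt3l a cofactor of de novo DNA methylation. Loss of either gene is known to stop male meiosis in early prophase.

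In meiotic prophase, programmed DNA breaks are repaired on the homologous chromosome, and a few of the repair intermediates become crossovers. MSH4 and MSH5, relatives of the bacterial mismatch repair protein MutS, form a clamp that holds recombination intermediates. They act together with TEX11 and with HFM1, a DNA helicase. MLH3, a relative of the bacterial protein MutL, acts later in the nuclease that resolves crossovers, while CCNB1IP1 (HEI10), a ligase-like protein, and CNTD1, a cyclin-related protein that works with PRR19, turn early sites into mature crossovers. Other relatives of MutS and MutL correct replication errors in all dividing cells.

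Sequences upstream of 4 genes are shown, because Cntd1 and its partner Prr19 were the genes of crossover formation called lower than both controls in at least 1 mutant, and Msh5 and Msh4 encode a pair whose ratio differed between the mouse lines. Each window holds the 250 bases before the RefSeq transcript start, 5′ to 3′ on the strand of the gene, in GRCm38.p6, whose coordinates are those of mm10. They lie at chr11:101278953-101279202 (plus strand, Cntd1), chr7:25301109-25301358 (plus strand, Prr19), chr17:35046623-35046872 (minus strand, Msh5) and chr3:153904892-153905141 (minus strand, Msh4). The windows of Msh5 and Msh4 lie within the spans of their genes, upstream of a start that is not the outermost. By the gene spans of GENCODE M21, part of the Cntd1 window (101279012 to 101279114) lies within both Cntd1 and Coa3, its neighbour on the opposite strand. Capitals mark matches to any of 4 motifs, searched on both strands: the E-box CACGTG, the motif CNCCTCAG known from promoters bound by the meiotic activator STRA8, the MYB motif AACNGNC and the E2F motif TTTNNCGC.
Cntd1: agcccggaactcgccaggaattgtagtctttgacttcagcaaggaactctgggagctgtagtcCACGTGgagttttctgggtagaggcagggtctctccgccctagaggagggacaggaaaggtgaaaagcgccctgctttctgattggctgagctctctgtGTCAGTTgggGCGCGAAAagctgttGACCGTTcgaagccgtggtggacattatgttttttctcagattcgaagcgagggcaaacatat
Prr19: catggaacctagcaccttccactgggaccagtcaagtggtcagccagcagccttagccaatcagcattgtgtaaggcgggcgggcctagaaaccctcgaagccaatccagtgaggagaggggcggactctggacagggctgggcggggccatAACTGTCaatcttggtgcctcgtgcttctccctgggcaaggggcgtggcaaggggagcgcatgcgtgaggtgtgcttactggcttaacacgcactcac
Msh5: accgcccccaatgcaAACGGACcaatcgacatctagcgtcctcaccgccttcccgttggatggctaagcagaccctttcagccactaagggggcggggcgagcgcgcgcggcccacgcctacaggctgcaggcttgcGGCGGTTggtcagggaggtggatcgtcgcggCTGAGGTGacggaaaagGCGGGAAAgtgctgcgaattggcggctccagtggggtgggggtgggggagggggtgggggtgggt
Msh4: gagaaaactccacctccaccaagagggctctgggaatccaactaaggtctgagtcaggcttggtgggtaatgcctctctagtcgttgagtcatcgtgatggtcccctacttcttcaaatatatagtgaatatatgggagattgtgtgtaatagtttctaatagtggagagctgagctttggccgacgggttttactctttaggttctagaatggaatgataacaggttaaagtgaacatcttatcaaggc

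The Cntd1 window held matches to 3 of the motifs, with the E-box from base -187 to -182 and a MYB match on either side of an E2F match at -78 to -71. Prr19 held 1 MYB match, and Msh5 a STRA8-linked match at -82 to -75, an E2F match at -65 to -58 and 2 MYB matches. The Msh4 window held none of them. Of 27025 promoters of the same length, 6.05% held the E-box, 6.39% the STRA8-linked motif, 27.6% the MYB motif and 4.39% the E2F motif. Among the 6 of the 7 crossover genes with a listed promoter, these motifs were found in 1, 2, 3 and 2 promoters. A match describes letters and not binding.

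The libraries differed in depth and in cell content. Between 30439943 (Pld6 KO) and 63875934 (Dnmt3L heterozygote) fragments were counted in genes. Pld6 was at 0.334 FPKM (fragments per kilobase of transcript, scaled to library depth) in the Pld6 KO and 8.55 to 19.5 FPKM in the other libraries. Dnmt3l had 0 fragments in the Dnmt3L KO and 20 to 101 in the others. All 26 markers of L/Z spermatocytes were detected in every library, with a median between 34.7 FPKM (Dnmt3L KO) and 110 FPKM (Pld6 WT). For 16 Sertoli markers the summed FPKM was 8496 (heterozygote) and 11329 (KO) in the Dnmt3L line, against 344 (WT) and 833 (KO) in the Pld6 line, with no marker at 0. The 16 pachytene markers summed to 1380 FPKM (Dnmt3L heterozygote) and 841 FPKM (Pld6 WT) in the controls, but to 119 FPKM in the Dnmt3L KO, with 1 marker at 0, and to 136 FPKM in the Pld6 KO. The 16 spermatid markers summed to 7268 and 307 FPKM in these controls and to 32.7 FPKM (2 at 0) and 19.9 FPKM (4 at 0) in the mutants. Median levels were 13.3 to 18.8 FPKM for spermatogonial markers, 1.94 to 38.4 FPKM for Leydig markers, 2.04 to 10.5 FPKM for macrophage markers and 2.84 to 11.8 FPKM for peritubular and vascular markers. In such bulk libraries, fewer cells of a type and less RNA per cell cannot be told apart.

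**Figure D1:**
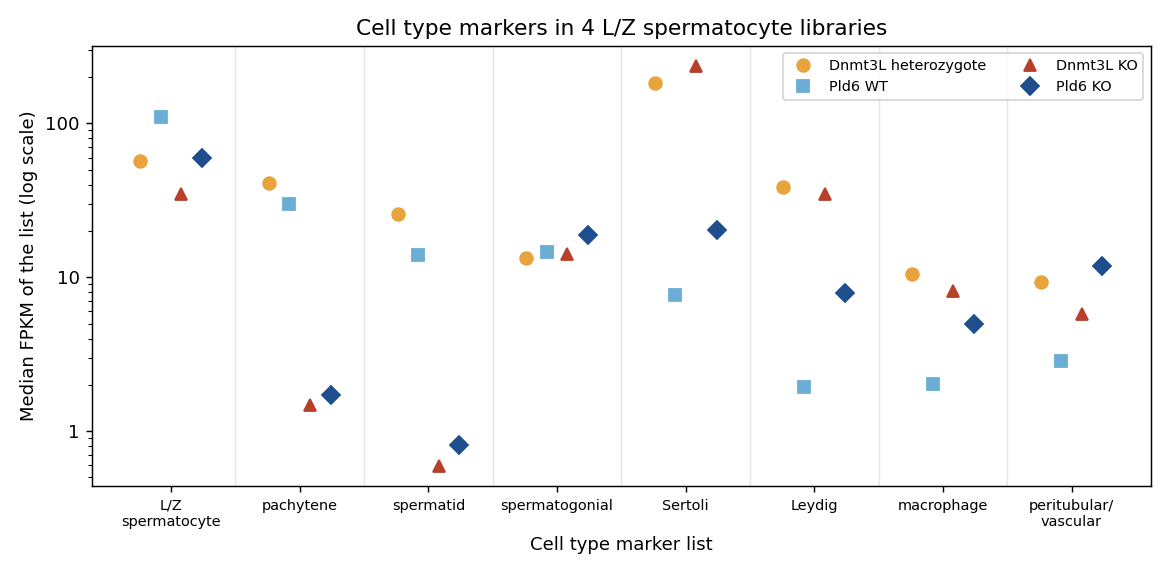
Median FPKM (log axis) of 8 lists of cell type markers in each of the 4 libraries, 1 point per list and library. Pachytene and spermatid markers were low in both mutants, and Sertoli markers were high in both libraries of the Dnmt3L line, at medians of 183 and 236 FPKM.

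To describe the baseline, the level of each crossover gene was first compared between genes, per length, in FPKM. Tex11 was the most abundant in all 4 libraries and Mlh3 the least. By the mean over the libraries the order was Tex11 (90.9 FPKM), Hfm1 (39.9), Msh5 (32.9), Ccnb1ip1 (16.8), Cntd1 (16.0), Msh4 (12.2) and Mlh3 (5.04). Neighbours in this order overlapped in range over the libraries, except Msh4, whose lowest value of 7.48 FPKM lay above the highest of Mlh3 (6.76 FPKM). Within a library, Tex11 exceeded Hfm1 in 4 of 4, Hfm1 exceeded Msh5 in 3 of 4 and Ccnb1ip1 exceeded Cntd1 in 2 of 4, so the last pair had no fixed order. The values rest on 545 to 15454 fragments per gene and library.

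Among the early factors, Msh4 (chromosome 3, 153857141 to 153906138) had 9.45 FPKM (Dnmt3L heterozygote) and 20.1 FPKM (Pld6 WT) in the controls, against 7.48 FPKM (Dnmt3L KO) and 11.8 FPKM (Pld6 KO) in the mutants. The Dnmt3L KO was the lowest, and the Pld6 KO lay between the controls. Its partner Msh5 (chromosome 17, 35028605 to 35046997) was at 16.2, 67.9, 12.2 and 35.4 FPKM in the same order of libraries. Msh5 varied most of the 7 genes, 5.55-fold from the lowest to the highest library, and the controls alone were 4.18-fold apart. Since MSH4 and MSH5 act as a pair, their FPKM ratio was taken within each library, where scaling between libraries plays no part. The ratio of Msh4 to Msh5 was 0.582 (heterozygote) and 0.611 (KO) for the Dnmt3L line, but 0.296 (WT) and 0.332 (KO) for the Pld6 line. The difference between the lines was 0.93 on the log2 scale, with a two-sided exact permutation p of 0.333, the smallest that 2 libraries against 2 can give. The test takes the control and the KO of a line as replicates, so it cannot decide whether the lines differ.

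Tex11 (chromosome X, 100838648 to 101059639) had 69.9 FPKM (Dnmt3L heterozygote) and 124 FPKM (Pld6 WT) in the controls, with 67.7 FPKM (Dnmt3L KO) and 102 FPKM (Pld6 KO) in the mutants. The Dnmt3L KO lay just below both controls and the Pld6 KO between them, at 96.9% and 81.6% of the controls of their own lines. Hfm1 (chromosome 5, 106840193 to 106926712) was at 30.2, 83.1, 22.3 and 23.9 FPKM in the same order. Both mutants were below both controls for Hfm1, by 1.34-fold (Dnmt3L KO) and 1.25-fold (Pld6 KO) against the lower control, while the controls were 2.75-fold apart. Against the Pld6 WT alone, Hfm1 in the Pld6 KO was 3.47-fold lower.

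For the later factors, Mlh3 (chromosome 12, 85234466 to 85270647) had 3.70 FPKM (Dnmt3L heterozygote) and 6.76 FPKM (Pld6 WT) in the controls, with 5.11 FPKM (Dnmt3L KO) and 4.58 FPKM (Pld6 KO) in the mutants. Both mutants lay between the controls. Ccnb1ip1 (chromosome 14, 50789249 to 50795728) was at 15.7, 22.9, 11.3 and 17.5 FPKM. It was lowest in the Dnmt3L KO and between the controls in the Pld6 KO.

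Cntd1 (chromosome 11, 101279203 to 101288701) had another pattern by FPKM, with the controls close to each other and apart from both mutants. The heterozygote library had 21.8 FPKM from 2862 fragments and the Pld6 WT 26.0 FPKM from 2147 fragments, against 7.77 FPKM from 746 fragments for the Dnmt3L KO and 8.48 FPKM from 545 fragments for the Pld6 KO. Counting error is small beside this gap, with an exact 95% Poisson interval of 500.2 to 593 fragments for the lowest count. The groups did not overlap, which among the 7 genes was also true of Hfm1. Of 14416 genes with mean FPKM of at least 1, 32.4% (Pld6 KO) and 34% (Dnmt3L KO) were below both controls at any size. The share with both mutants below both controls at any size was not counted, so non-overlap alone does not set Cntd1 apart. Cntd1 stood at 35.7% (Dnmt3L KO) and 32.6% (Pld6 KO) of the control of the same line. The controls differed by an SD of 0.18 on the log2 scale of FPKM + 1, against 0.37 to 1.41 for the other 6 genes. Scaled to the L/Z markers, the Cntd1 controls were farther apart, at 23.9 (Dnmt3L heterozygote) and 16.7 (Pld6 WT), with the Dnmt3L KO at 13.2. The closeness of its controls thus depended on the scaling.

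**Figure D2:**
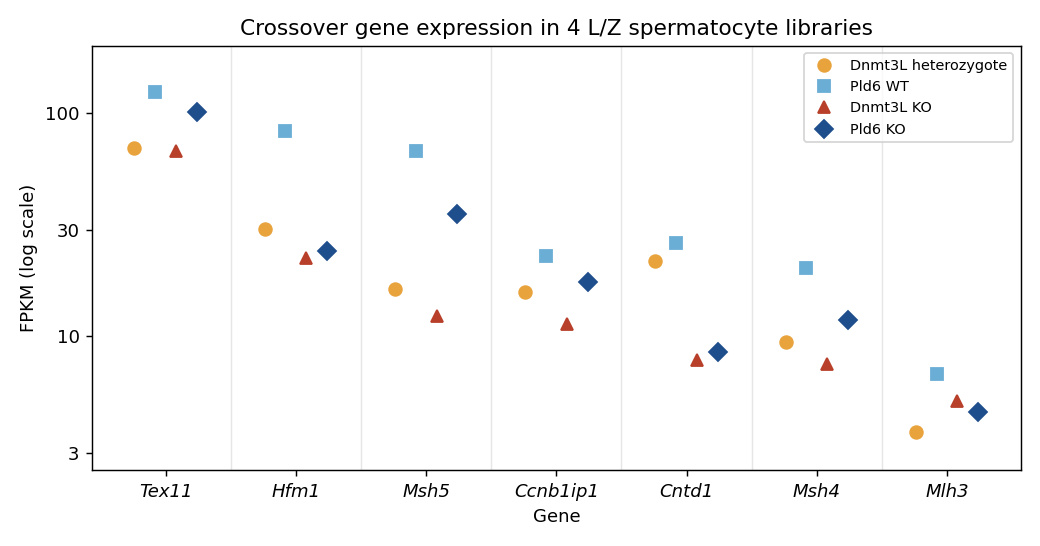
FPKM (log axis) of the 7 crossover genes, from the most to the least abundant, with 1 point per library and no replicates. By FPKM all 7 were highest in the Pld6 WT library, which with scaling to the L/Z markers held for 3 of them (Msh4, Msh5 and Hfm1). The share of all genes highest in that library was not counted, so these counts do not set the 7 genes apart. By FPKM Cntd1 was at 21.8 and 26.0 in the controls against 7.77 and 8.48 in the mutants.

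Whether the loss of Pld6 or Dnmt3l changed the crossover genes was asked with the log2 change of FPKM + 1 against the mean of the controls. A gene was called when it lay more than 2-fold beyond both controls. In the Pld6 KO, 1 of 7 genes (Cntd1) was called lower and 0 higher, against 8.57% of 14416 genes with mean FPKM of at least 1 that were lower and 1.51% that were higher by this rule. In the Dnmt3L KO the count was again 1 (Cntd1) lower and 0 higher, where 9.16% of all genes were lower and 3.29% higher. In both mutants at once, 7.3% of all genes were called lower. These calls share their controls and are therefore not independent of each other. A share of 1 in 7 is near the background, so the 7 genes as a group were not set apart by it. Cntd1 had a log2 change of -1.39 in the Pld6 KO and -1.51 in the Dnmt3L KO, and lay 2.40-fold and 2.60-fold below the lower control, a call that was lost in both mutants when values were scaled to the L/Z markers.

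The median change of the 7 genes was -0.24 in the Pld6 KO and -0.90 in the Dnmt3L KO, beside -0.0530 and -0.0154 over all genes. In the Pld6 KO its sign turned with the control used, from -0.73 without the Dnmt3L heterozygote to 0.25 without the Pld6 WT, and in the Dnmt3L KO it was -1.32 and -0.38. The change exceeded the difference between the controls for 1 gene in the Pld6 KO (Cntd1) and for 2 in the Dnmt3L KO (Cntd1 and Ccnb1ip1). The share of all genes that did so was not counted, so these counts cannot tell whether the 7 genes stand apart. In the Dnmt3L KO, 6 of 7 genes were below both controls, where 34% of all genes were, and Mlh3 was the exception, but with scaling to the L/Z markers 1 of 7 was, where 10.6% of all genes were. In the Pld6 KO, 2 of 7 (Hfm1 and Cntd1) were below both, where 32.4% of all genes were, and 2 of 7 with that scaling, where 14.4% were. None was above both in the Pld6 KO, where 31% of all genes were, or in the Dnmt3L KO, where 35.5% were. The quasi-likelihood test of edgeR, with p-values adjusted by Benjamini-Hochberg, called 0 of 18657 genes (0%) at an adjusted p of 0.05 in either mutant. Unadjusted p-values were under 0.05 for 102 higher and 1383 lower genes of the Pld6 KO and for 203 and 1440 of the Dnmt3L KO, and the 7 crossover genes were not among them by edgeR. For Cntd1 the edgeR adjusted p was 0.741 in the Pld6 KO, with 0.545 to 0.783 over the other fits including DESeq2, and 0.637 in the Dnmt3L KO, with 0.429 to 0.660 over them. For the other 6 genes the edgeR adjusted p was 0.777 or above. DESeq2 called 5.46% of all genes in the Pld6 KO and 5.26% in the Dnmt3L KO, and none of the 7, although its unadjusted p for Cntd1 in the Dnmt3L KO was 0.0416.

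**Figure D3:**
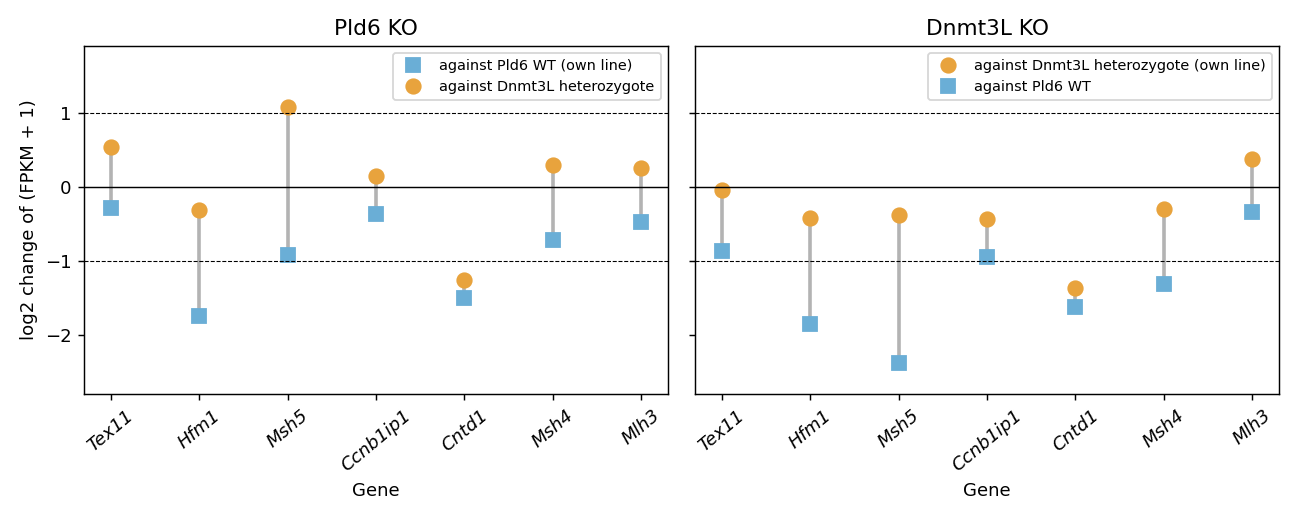
Log2 change of FPKM + 1 of each crossover gene in the Pld6 KO (left) and the Dnmt3L KO (right), against each control separately, with a grey bar joining the values and dashed lines at 2-fold. For Cntd1 both points lay below the lower dashed line in both mutants, from -1.26 to -1.62, whereas those of Msh5 in the Pld6 KO were 1.08 and -0.92.

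Next, each mutant was set against the control from its line, a pair of comparisons with no library in common. Against the Pld6 WT, all 7 genes were lower in the Pld6 KO, from -0.29 (Tex11) to -1.75 (Hfm1) on the log2 scale, with 49.2% of all genes lower, but 4 of 7 were lower with scaling to the L/Z markers, where 15.9% of all genes were. More than 2-fold lower were 2 of them, Hfm1 and Cntd1, against 9.95% of all genes. Against the Dnmt3L heterozygote, 6 of 7 were lower in the Dnmt3L KO, with 45.2% of all genes lower, and Mlh3 was 0.38 higher, but 1 of 7 was lower with that scaling, where 19.3% of all genes were. Only Cntd1, at -1.38, was more than 2-fold lower, against 12% of all genes. None was more than 2-fold higher, against 7.41% of all genes in the Pld6 KO and 4.61% in the Dnmt3L KO. The medians of the 7 genes were -0.73 and -0.38, and those of the 26 L/Z markers -0.68 and -0.60, with 25 and 24 of the 26 markers lower. Over all genes the medians were 0.00667 and 0.0633. With both mutants pooled against both controls and the mouse line as a block, a fit added after the other results were seen, edgeR called 1 of 7 genes lower and 0 higher, against 5.98% and 0.741% of 17686 genes. The gene was Cntd1, with a log2 change of -1.58 and an edgeR adjusted p of 0.0181, against 0.217 without the block. For the other 6 genes the edgeR adjusted p with the block was 0.128 (Hfm1) or above. This fit treats the knockouts as replicates of 1 condition, has 1 residual degree of freedom and was not scaled to the L/Z markers.

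Because the L/Z markers were themselves lower in the mutants, the genes were also expressed relative to the geometric mean of these markers in the same library. On that scale no crossover gene was called in either mutant. Cntd1 had scaled FPKM of 23.9 (Dnmt3L heterozygote), 16.7 (Pld6 WT), 13.2 (Dnmt3L KO) and 8.99 (Pld6 KO), so it was still lowest in the mutants but 1.25-fold and 1.77-fold below the lower control. Msh4 was at 10.4, 12.9, 12.7 and 12.5 scaled FPKM in the same order, a narrower range than in FPKM. Tex11 was at 76.9 and 79.9 scaled FPKM in the controls and at 115 and 108 in the mutants. It was 1 of 3 genes, with Mlh3 and Ccnb1ip1, that lay above both controls in each mutant on this scale, where 44.3% of all genes did so in the Pld6 KO and 78.9% in the Dnmt3L KO. The scaling moved the median of all genes to 0.20 in the Pld6 KO and 0.88 in the Dnmt3L KO, while the median of the 7 genes was 0.17 and 0.11, below that of all genes. It also turned the calls over all genes to 6.38% lower and 4.70% higher in the Pld6 KO and to 5.48% lower and 23.1% higher in the Dnmt3L KO.

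**Figure D4:**
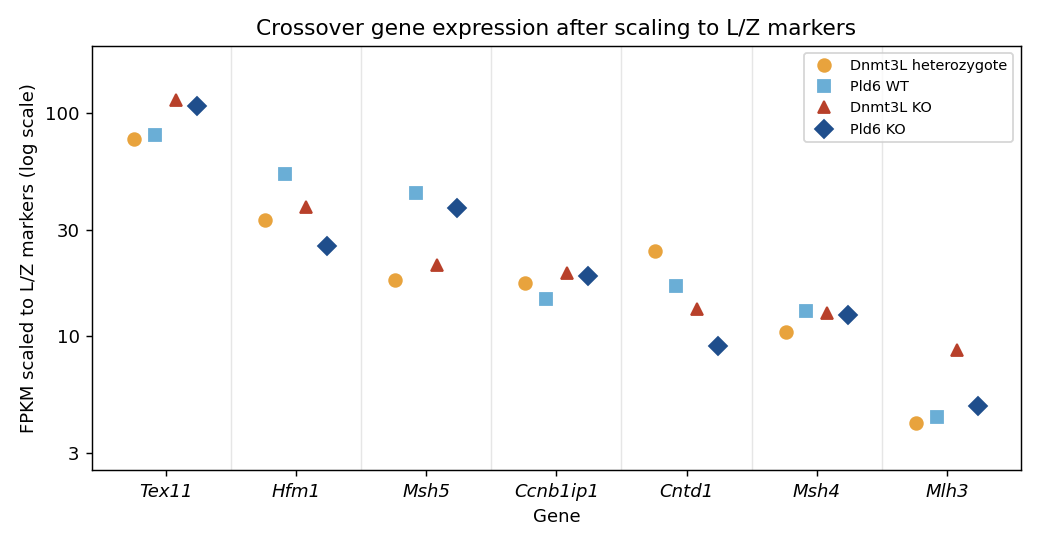
FPKM of the 7 crossover genes (log axis) after division by the geometric mean of 26 L/Z markers in the same library, 1 point per library. Msh4 lay between 10.4 and 12.9 in all libraries, and Cntd1 stayed lowest in the mutants, at 13.2 and 8.99.

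Shares within each library need no scaling between libraries, and by them Cntd1 and Hfm1 were both lowest in the mutants. Of the summed FPKM of the 7 genes, Cntd1 made up 13.0% (Dnmt3L heterozygote) and 7.41% (Pld6 WT) in the controls, and 5.80% (Dnmt3L KO) and 4.17% (Pld6 KO) in the mutants. Hfm1 made up 18.1% and 23.7% in these controls, and 16.6% and 11.8% in these mutants. A share moves with the levels of the other genes, and such shares were not taken over all genes. The share of Msh4 was 5.59% to 5.79% in all 4 libraries. The 16 pachytene markers were lower as well: 13 of 16 were more than 2-fold lower than both controls in each mutant. Over all genes 8.57% (Pld6 KO) and 9.16% (Dnmt3L KO) were. The pachytene medians were -2.79 in the Pld6 KO and -2.97 in the Dnmt3L KO. Of the 16 spermatid markers, 15 (Pld6 KO) and 14 (Dnmt3L KO) were called lower. Between the controls, by FPKM, pachytene markers had a median of 0.45 in the Dnmt3L heterozygote against the Pld6 WT, and Cntd1 was at -0.25. Ldhc, a lactate dehydrogenase of late spermatocytes, was at 623 and 304 FPKM in the controls and at 2.80 and 1.91 FPKM in the Dnmt3L KO and Pld6 KO. The part of pachytene cells in the values of Cntd1 was not tested.

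By the gene spans of GENCODE M21, Cntd1 also overlaps its neighbours on the opposite strand, over 103 bases with Coa3 and 10366 bases with Becn1. The RefSeq span of Cntd1 given above, 101279203 to 101288701, is shorter. The Coa3 overlap (101279012 to 101279114) lies outside that span. The Becn1 overlap (101285952 to 101296317) lies only partly within it. The library kit keeps strand, but whether the counting used it is not given in the sources used here. Becn1, an autophagy gene, was at 100.2 and 111 FPKM in the controls, 98.2 FPKM in the Dnmt3L KO and 94.8 FPKM in the Pld6 KO. Coa3, a mitochondrial assembly factor, was at 63.4, 41.7, 45.8 and 46.7 FPKM. Neither neighbour was called. Among the other genes, the overlaps were with small RNAs and pseudogenes.

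Other genes of the pathway were taken from a list of 18 crossover partners, of which 15 were in the table. Of these, 0 were called higher in either mutant, where 1.51% (Pld6 KO) and 3.29% (Dnmt3L KO) of all genes were. In the Pld6 KO 0 were called lower, where 8.57% of all genes were. In the Dnmt3L KO 1 of 15 was called lower, near the share of 9.16% over all genes. That gene was Prr19 (chromosome 7, 25301359 to 25304140), whose protein works with CNTD1. The controls had 22.8 FPKM (Dnmt3L heterozygote) and 20.4 FPKM (Pld6 WT) of it, and the mutants 6.34 FPKM (Dnmt3L KO) and 13.7 FPKM (Pld6 KO). Both mutants were below both controls, by 2.91-fold and 1.46-fold against the lower control. Relative to the L/Z markers, these became 1.20-fold lower in the Dnmt3L KO and a value above the lower control in the Pld6 KO. The edgeR adjusted p of Prr19 was 0.632 in the Dnmt3L KO. The median change of the partners was -0.12 in the Pld6 KO and -0.21 in the Dnmt3L KO.

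General mismatch repair was represented by 11 genes that serve DNA replication and repair in dividing cells, all of them measured. In both mutants 0 of 11 were called, with medians of -0.0351 in the Pld6 KO and -0.41 in the Dnmt3L KO. Over all genes 8.57% (Pld6 KO) and 9.16% (Dnmt3L KO) were called lower, so a count of 0 in 11 does not set these genes apart. Against the control of their own line the medians were -0.00657 and -0.0736, beside -0.73 and -0.38 for the 7 crossover genes.

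**Figure D5:**
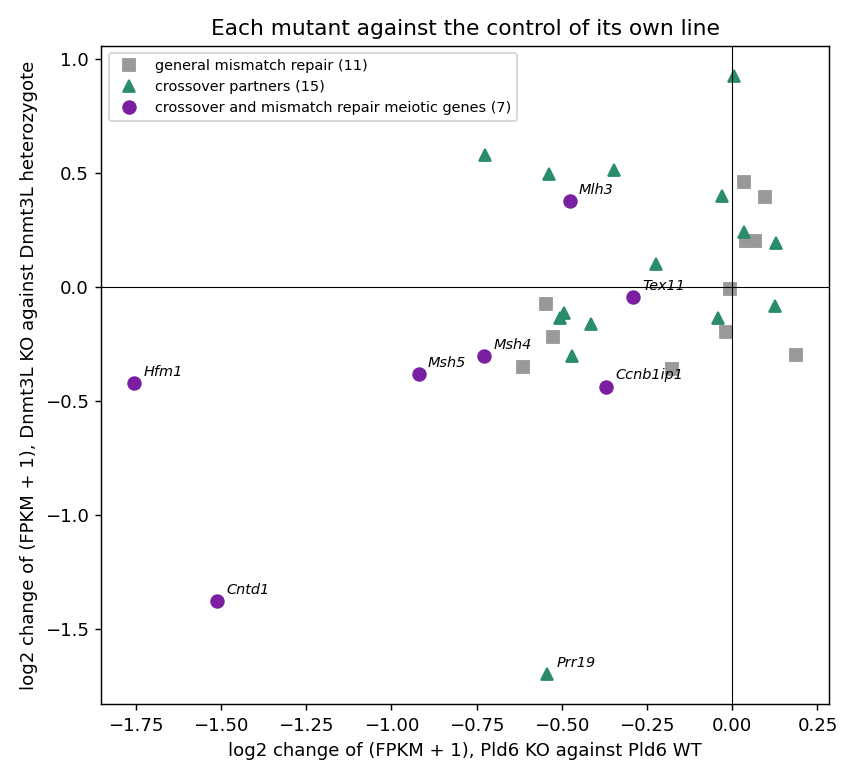
Log2 change of FPKM + 1 in the Pld6 KO against the Pld6 WT (horizontal) and in the Dnmt3L KO against the Dnmt3L heterozygote (vertical), for the 7 crossover genes, 15 crossover partners and 11 general mismatch repair genes, 1 point per gene. Cntd1 lay at -1.51 and -1.38, and Prr19 at -0.54 and -1.70.

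The controls were also compared, because their difference sets the spread for every value above. All 7 crossover genes were higher in the Pld6 WT than in the Dnmt3L heterozygote, where 46.5% of all genes were higher, but with scaling to the L/Z markers 5 of 7 were, without Cntd1 and Ccnb1ip1, and 15.1% of all genes. By FPKM, 3 (Msh4, Msh5 and Hfm1) were more than 2-fold higher, against 6.1% of all genes. The crossover partners and the general mismatch repair genes had medians of -0.47 and -0.50 for the Dnmt3L heterozygote against the Pld6 WT, and the L/Z markers -0.88, while the Sertoli markers were 4.07 higher in the heterozygote. The part of Sertoli cells in the values of the crossover genes was not tested.

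Finally, genes whose pattern over the 4 libraries was most like the median pattern of the 7 were sought among 10605 other genes with mean FPKM of at least 5, by Euclidean distance of centred log2(FPKM + 1). Relative to its own mean, the pattern was at 0.76 in the Pld6 WT, 0.04 in the Pld6 KO, -0.25 in the Dnmt3L heterozygote and -0.55 in the Dnmt3L KO. In every library this pattern was that of Msh4, whose distance to it was 0. The other crossover genes lay 0.37 (Ccnb1ip1) to 1.13 (Cntd1) away. The nearest genes outside the 7 were Cenpk, Ddb2, Strbp, H2-Q6 and Zfp318, at distances of 0.0357 to 0.112. They are thus neighbours of Msh4, and lay nearer to it than the other crossover genes did. Cenpk, a kinetochore gene, was at 29.0, 57.9, 22.8 and 35.5 FPKM in the Dnmt3L heterozygote, Pld6 WT, Dnmt3L KO and Pld6 KO. H2-Q6 belongs to a family of near-identical genes, so its value is uncertain where reads were split among copies. With 4 libraries such nearness is a description only.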

How the data were processed

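The 4 libraries of polyA(+) RNA from L/Z spermatocytes were stranded and read for 50 bp from 1 end. According to the submitters' processing notes and the study's methods, the authors aligned reads with TopHat to mm10 and counted fragments in RefSeq genes by Cuffdiff. The versions are not given in the sources used here. The deposited table holds estimated counts of fragments per gene and library before scaling, of which 97.3% to 97.4% were whole numbers. It also holds FPKM as deposited by the authors, scaled by Cuffdiff to gene length and library, and the scaled fragments themselves, a signal from which only the factor of each library was read. Those factors of the deposited signal ranged from 0.678 to 1.39. Cuffdiff marked 31 values of 28 genes as failed, none of them in a crossover gene. Columns without a sample of this series numbered 0.

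FPKM values were compared as log2(FPKM + 1), which understates changes of low genes. Genes with mean FPKM of at least 1 over the libraries formed the background, and 7 of 7 crossover genes met this. edgeR 4.0.16 (quasi-likelihood, TMM, filterByExpr) was run on fragments rounded to whole numbers, with 4 libraries in 3 groups. The 2 controls gave the 1 residual degree of freedom, so its p-values measure only the spread between them, and with line as a term 0 would be left. With the mutants pooled, line was also fitted as a block, since the labels pair each knockout with a control by line. DESeq2 1.42.0 was an alternative. Scripts were tested on simulated data. Positions and promoters came from RefSeq (GRCm38.p6), overlaps from GENCODE M21. A promoter was listed for 6 of the 7 crossover genes measured.

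The crossover genes, gene lists, motifs and tests were chosen with earlier results of these data known. Some genes of the pathway lists are not reported here and were left out of the lists. Genes were named by a fixed rule: all listed crossover genes; of the pathway lists, those called in either mutant; the 5 genes of nearest pattern; and the most abundant genes of a cell type list. Becn1 and Coa3 were named after their overlap was seen. Alternatives were another pseudocount, fold threshold, scaling, filter and test, and each control left out. Reads of retrotransposons and of the parental alleles were not analysed here. Poisson intervals cover counting error only, since reads carried no molecular identifiers.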

Additional observations from a re-analysis of the deposited data

Results flagged for a closer look

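Results are given here when the own-line comparisons pointed in opposite directions, lower in the mutant of 1 line and higher in that of the other. Each genotype had 1 library, so these differences between lines were not tested. Mlh3 was at -0.48 on the log2 scale in the Pld6 KO against the Pld6 WT and at 0.38 in the Dnmt3L KO against the Dnmt3L heterozygote. The median of the crossover partners was at -0.35 and 0.10. Of the cell type lists, spermatogonial markers were at -0.0535 and 0.25, Leydig markers at 1.78 and -0.0245, and peritubular and vascular markers at 1.69 and -0.53.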

How the results depend on the processing

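A call at 2-fold against both controls cannot be lost with a pseudocount of 0.1 FPKM, a fold threshold of 1.5 or either control alone. Of the settings that could remove it, TMM and DESeq2 size factors kept the call of Cntd1 as lower in both mutants. It was lost with scaling to the L/Z markers, which left 0 genes called lower in the Pld6 KO and 0 in the Dnmt3L KO and moved the median of the 7 genes in the Dnmt3L KO to 0.11; the cause was not tested. Leaving out 1 control at a time gave 1 to 2 genes called lower and 0 to 1 higher in the Pld6 KO, with medians of -0.73 to 0.25, and 1 to 4 lower in the Dnmt3L KO, with medians of -1.32 to -0.38. Without the Dnmt3L heterozygote, Hfm1 joined Cntd1 in the Pld6 KO, and Msh4, Msh5 and Hfm1 joined it in the Dnmt3L KO. Without the Pld6 WT, Msh5 was called higher in the Pld6 KO. Against the Pld6 WT alone, 9.95% of all genes were lower and 7.41% higher in the Pld6 KO. In the Dnmt3L KO 13.7% were lower and 19.1% higher against that control. Against the Dnmt3L heterozygote alone, 20.3% of all genes were lower and 8.64% higher in the Pld6 KO. In the Dnmt3L KO 12% were lower and 4.61% higher against the heterozygote. The calls of edgeR over all genes, 0 in each direction, became 8 higher and 429 lower in the Pld6 KO and 6 higher and 423 lower in the Dnmt3L KO with no filter on low counts, and 15 and 957, and 17 and 919, with DESeq2. With all genes as the background, 5.41% were lower and 1.04% higher in the Pld6 KO, and 5.78% and 2.14% in the Dnmt3L KO. Of 14 log2 changes of single crossover genes, 8 turned sign under the L/Z marker scaling, 1 against the Pld6 WT alone and 5 against the Dnmt3L heterozygote alone. In neither mutant alone did a crossover gene pass an adjusted p of 0.05 by edgeR or DESeq2. No paired analysis was possible for a single mutant because line as a block leaves 0 residual degrees of freedom. With both mutants pooled, edgeR called 0 genes without a block (128 higher and 1548 lower at an unadjusted p under 0.05) and 131 higher and 1058 lower genes with the replicate block of mouse line.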
